A study of Mus with 6 samples.

Results

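Opposite-strand RNAs are long non-coding RNAs (lncRNAs) whose symbol is that of a neighbouring gene followed by "os", because they are transcribed from the strand opposite to it. The RNAs described here are all names in the authors' table that end in os, or in os and digits, apart from those of the Sox and Hox families and 9 names listed one by one (Evx1os, Dlx6os1, Dlx4os, Emx2os, Lhx1os, Otx2os1, Prox1os, Zeb2os and Igf2os). This gave 119 of 2282 names, which stand opposite 112 different genes, called sense genes here. The rule reads names alone, but it was set with earlier results of these data known. It left 11 RNAs opposite transcription factors of embryonic patterning among the 119, such as Nkx2-2os, Pax6os1, Six3os1 and Tbx3os1.

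The samples were pars compacta of the right substantia nigra, a midbrain region whose dopaminergic neurons are lost in Parkinson's disease, from mice that overexpress human α-synuclein with the A53T substitution. All 6 samples carry this genotype, and no group without it was analysed here. The model group (n = 3) was given 0.9% saline and the AVE0991 group (n = 3) was given AVE0991, an agonist of the Mas receptor, at 10 mg/kg, each as 1 intraperitoneal injection per day over 30 days. The sources used here do not give the promoter of the transgene or the age of the mice. The labels do not state that each sample is a different animal, and a p-value here rests on the spread among samples that may be technical replicates.

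Natural antisense and divergent lncRNAs are common in mammalian genomes. Some start beside the promoter of their sense gene and point away from it, others run through its exons or introns, and a few are known to raise or lower the output of that gene, whereas for most no function is known. In RefSeq (GRCm38.p6), which lists 117 of the 119 as lncRNA and 2 (Fbxl12os and Speer4cos) as transcribed pseudogenes, 89 overlapped their sense gene, 19 lay within 1000 bases of it and 11 lay further away. The deposited counts carry no statement on strand. Reads of an opposite-strand RNA and of a gene it overlaps therefore cannot be told apart, and no sense gene of the 119 was itself in the table.

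The authors' table by name gives group means and a test per name. Whole counts per library were recovered from it for 2240 names; the 3 libraries of each group, called a, b and c, carry no replicate number. Recovered totals ran from 1680662 to 2277225 counts per library, and the separate count table by identifier held 37036986 to 52029003 per sample. Model library a lay nearer to the AVE0991 mean than to the mean of model libraries b and c in 3 of the 10 opposite-strand RNAs that passed the test below (Tmem132cos, Ppp2r2cos and Grip1os2). The 10 were picked by that test, and the same share over all tested names was not computed. Of 32 marker genes of neurons, glia, vessels and ependyma, 2 were in the named table, none of them dopaminergic. The count table by identifier was not searched for markers, so the labelled tissue was not checked against its defining markers.

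The design asks which RNAs change when A53T mice receive AVE0991 rather than saline. Of the 119 RNAs, 107 had enough counts to be tested. With AVE0991, 6 rose (Chn1os3, Grip1os1, Gad1os, Bach2os, Cd55os and Grip1os2), 4 fell (Tmem132cos, Far1os, Ppp2r2cos and Brip1os) and 97 did not pass an adjusted p of 0.05 (edgeR quasi-likelihood test, Benjamini-Hochberg adjustment over all 1867 tested names). This is 9.35%, against 16.0% of all tested names, 298 of 1867. By direction, 5.61% of the opposite-strand RNAs rose and 3.74% fell, against 7.66% and 8.3% of all tested names. Their median log2 fold change was -0.06, against -0.01 for all tested names, and their median absolute log2 fold change was 0.33 against 0.41. With a 2-fold minimum as well, 5 passed (4.67%, against 9.86% of all tested names). In 71 of the 107 the log2 fold change lay within 0.5 of 0. Of the 12 opposite-strand names that the rule leaves out, 3 rose and 5 fell (66.7% passed). They were set apart with earlier results of these data known, so the contrast is a description. The lower share of the 107 than of all tested names depends on that choice and does not describe opposite-strand RNAs as a whole.

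The groups did not overlap in 41 of the 107 RNAs, 38.3% against 39.0% of all tested names. By direction, 23 were higher with AVE0991 (21.5%, against 16.5%) and 18 were lower (16.8%, against 22.5%). At an unadjusted p under 0.05 the edgeR test had 31 of them (29.0%, against 30.9%). The authors' deposited table has 19 of the 118 opposite-strand RNAs with a value at an unadjusted p under 0.05 (16.1%, against 18.8% of 2247 names), and none passed after adjustment over all names here (0.0% of all names, smallest adjusted value among the opposite-strand RNAs 0.212). Apart from the non-overlapping higher RNAs, each of these shares lay near or under that of the table as a whole.

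**Figure D1:**
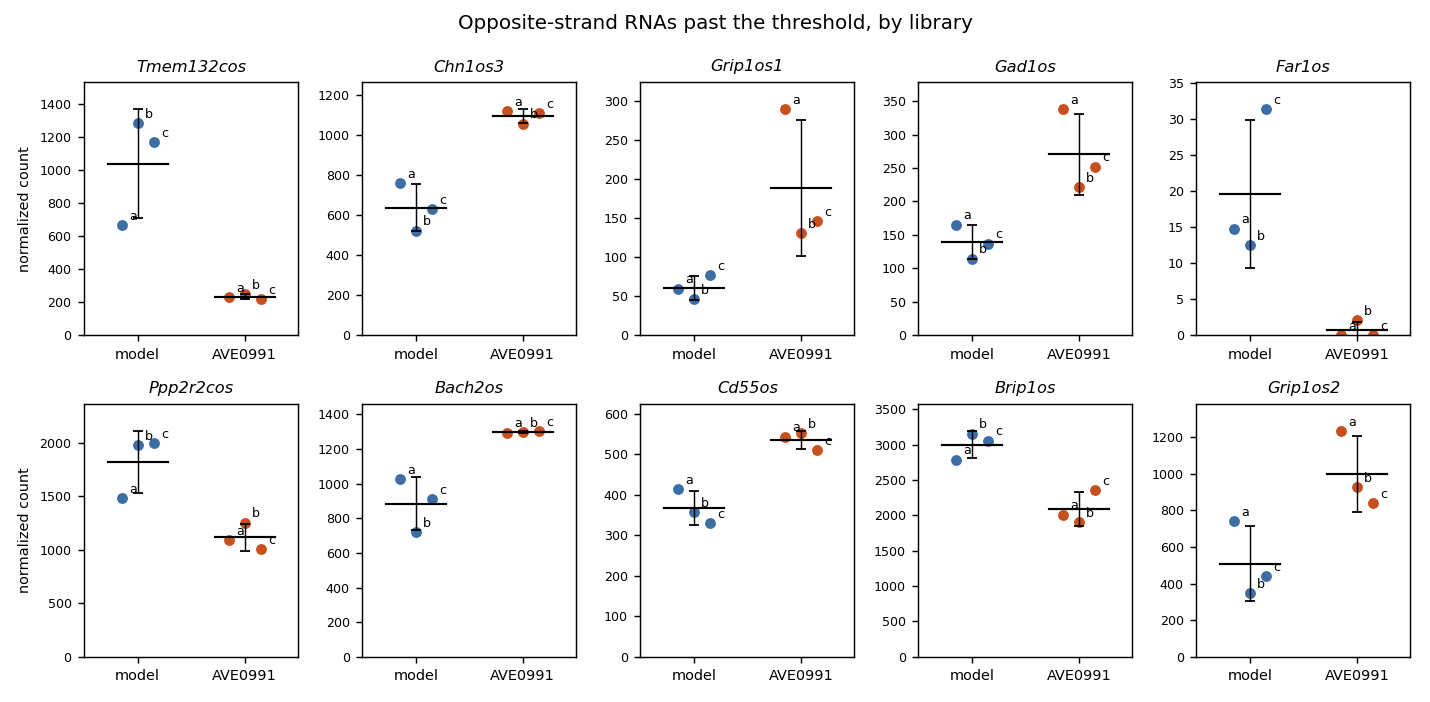
Normalized counts of the 10 opposite-strand RNAs past the threshold, 1 panel each, on linear axes that start at 0; each point is 1 library (a, b or c), the horizontal bar is the group mean and the whisker its SD (n = 3). In each panel the 3 AVE0991 libraries lie all above or all below the 3 model libraries, with Tmem132cos showing the smallest p.

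Tmem132cos had the smallest p of the 107. Its sense gene Tmem132c encodes a membrane protein of little known function. The normalized counts (counts divided by the library factor) were 665, 1283 and 1167 in the model group (libraries a to c in that order, as for every RNA below) and 229, 247 and 218 with AVE0991. The AVE0991 libraries were tightly grouped and lay well under the lowest model library, which was library a. The means were 1038 ± 328 and 231 ± 14.7 (SD, n = 3 each). On the log2 scale the fold change was -2.11 ± 0.26 (SE; adjusted p = 0.00168, edgeR quasi-likelihood test). The call held with each library left out (adjusted p from 0.000176 to 0.0143, edgeR), and it was the only one of the 10 to do so. In the authors' deposited table, whose test estimates the spread from the 3 values per group alone, its statistic was -4.25 with 2.01 degrees of freedom and an unadjusted p of 0.0507.

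Among sense genes of synapse, ion channel and transmitter function, 3 of 13 tested RNAs rose, none fell and 10 did not pass; of all tested names 7.66% rose and 8.3% fell, which is the background for each function group. Their median log2 fold change was 0.48, against -0.01 for all tested names, and 9 of 13 lay above 0, against 910 of 1867. RNAs that share a sense gene are counted separately here and are not independent. Such RNAs include Grip1os1 and Grip1os2, which both rose, and Kcnmb4os1 and Kcnmb4os2. The median ran from 0.43 to 0.50 under other library scalings and from 0.35 to 0.59 with 1 library left out. Leaving out AVE0991 libraries a to c in turn gave 0, 2 and 1 risers, while 7.74%, 7.94% and 7.38% of all tested names passed in either direction. Leaving out model libraries a to c gave 4, 0 and 1, while 21.8%, 4.88% and 5.88% of all tested names passed in either direction. Without model library a, 11.6% of all tested names rose. The count of risers was highest where most names passed. Miat, a neuronal lncRNA and 1 of the 2 markers in the table, also rose (log2 fold change 0.96 ± 0.22, SE; adjusted p = 0.0223, edgeR). The other, Meg3, had group means of 218164 with AVE0991 and 213794 in the model group in the authors' deposited table. Whether the share of neurons moved with these RNAs was not tested, and in bulk tissue more cells of a type and more RNA per cell cannot be told apart.

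Grip1 encodes a scaffold protein that binds AMPA-type glutamate receptors, and both RNAs opposite to it rose. Grip1os1 had normalized counts of 59.1, 45.6 and 76.4 in the model libraries and 289, 131 and 146 with AVE0991. All 3 AVE0991 libraries lay above the model group, and library a lay far above the other AVE0991 libraries. The log2 fold change was 1.70 ± 0.38 (SE; adjusted p = 0.0201, edgeR), and the call was lost without AVE0991 library a or model library b (adjusted p = 0.0599 and 0.0809, edgeR). Grip1os2 had 740, 347 and 440 in the model libraries and 1234, 926 and 841 with AVE0991. Here too AVE0991 library a was the highest, and model library a came close to the lowest AVE0991 library. Its log2 fold change was 1.03 ± 0.30 (SE; adjusted p = 0.0486, edgeR), and it passed no longer when any library but model a was left out (adjusted p from 0.0757 to 0.165, edgeR) and with the authors' library factors (0.0538).

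Gad1os lies opposite Gad1, the enzyme that makes the inhibitory transmitter GABA from glutamate; in RefSeq it also overlaps Erich2. Its normalized counts were 165, 115 and 137 in the model libraries and 338, 221 and 252 with AVE0991. The groups did not overlap, and AVE0991 library a was again the highest. The log2 fold change was 1.02 ± 0.25 (SE; adjusted p = 0.0292, edgeR). Without AVE0991 library a the adjusted p was 0.0918, without AVE0991 library c 0.0642, and without model libraries b and c in turn 0.108 and 0.0958 (edgeR).

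The other RNAs of synaptic sense genes did not pass in the edgeR test with TMM scaling. Kcnmb4os1, opposite an accessory subunit of the BK potassium channel, had 2170, 2900 and 1893 in the model libraries and 3575, 3698 and 2974 with AVE0991, so the groups were separate by a narrow margin (log2 fold change 0.61 ± 0.18, SE; adjusted p = 0.0528, edgeR). Kcnmb4os1 did pass with DESeq2 size factors (0.0478), the DESeq2 test (0.0123), limma-voom (0.0395) and a mean count of at least 50 (0.0427), and did not in the other 8 of 12 alternative fits. Nrg3os, opposite a neuregulin ligand of ErbB receptors, had 3162, 2235 and 3123 against 4178, 3989 and 3637 (adjusted p = 0.0761, edgeR), and passed in the DESeq2 test (0.0303) and without model library a (0.0475, edgeR). Dbhos is named for Dbh, the enzyme that turns dopamine into noradrenaline, and had low counts: 8.32, 9.84 and 3.39 against 23.9, 13.3 and 26.2. All AVE0991 libraries were above the model libraries, with a log2 fold change of 1.60 ± 0.67 (SE; adjusted p = 0.145, edgeR). Grin1os, opposite the obligate NMDA receptor subunit, had one of -0.20 ± 0.18, and Kcnd3os, opposite an A-type potassium channel, one of 0.13 ± 0.20.

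**Figure D2:**
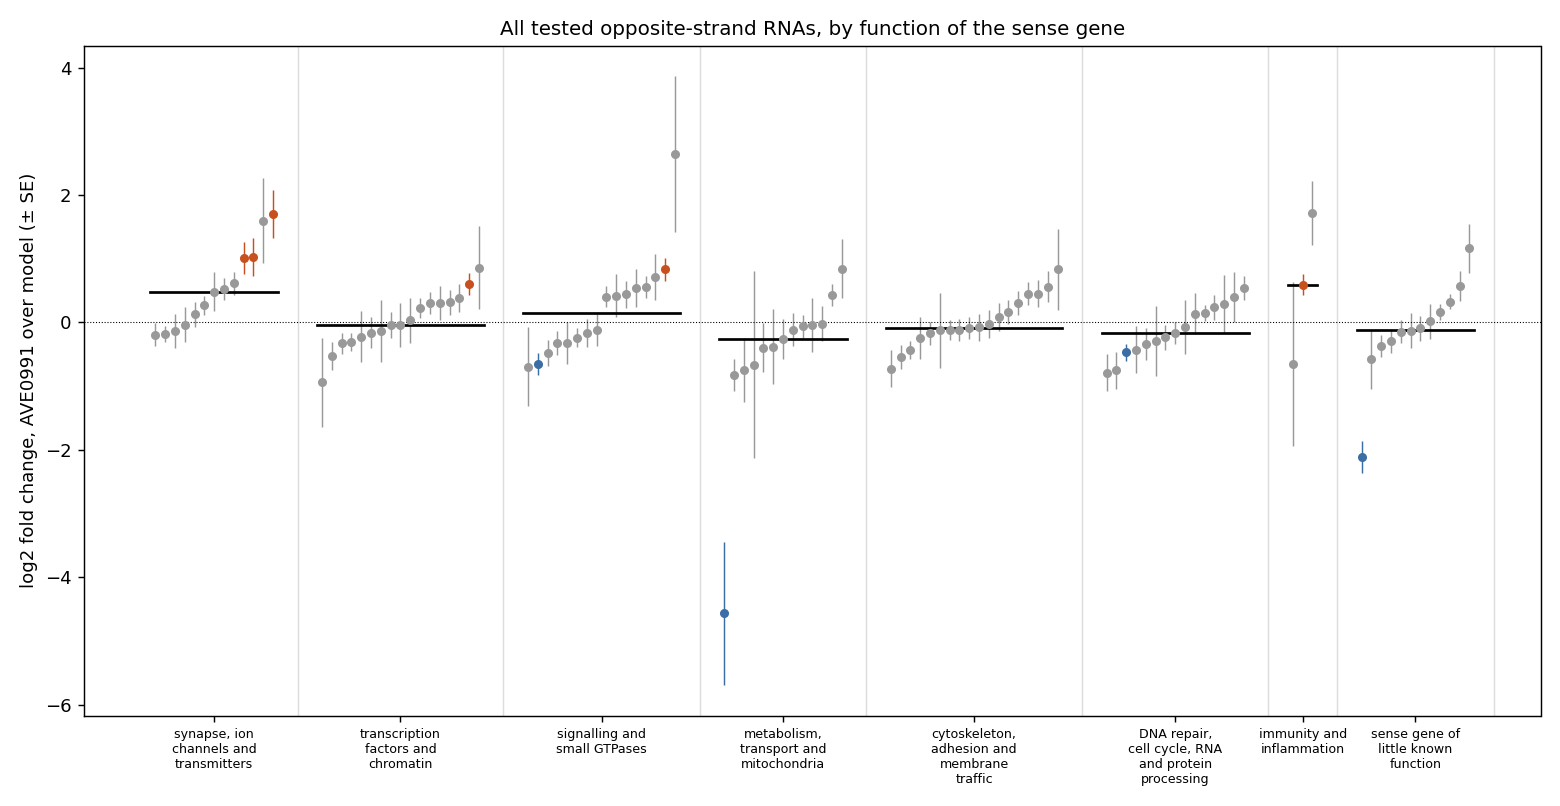
Log2 fold change of AVE0991 over model for the 107 tested opposite-strand RNAs, grouped by the known function of the sense gene; points are RNAs sorted within a group, bars are SE, black lines are group medians, orange and blue points passed the threshold as higher and lower. The median of the synaptic group lies at 0.48, while the medians of the other groups lie between -0.26 and 0.14, apart from 0.60 for the 3 immune RNAs.

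At signalling and small GTPase genes, 1 of 16 tested RNAs rose and 1 fell, with a median log2 fold change of 0.14. Chn1os3 lies opposite Chn1, which encodes α-chimaerin, a regulator of the GTPase Rac in axon guidance. It had 759, 521 and 629 normalized counts in the model libraries and 1116, 1056 and 1109 with AVE0991. The AVE0991 libraries were close together and clear of the highest model library, a. Its log2 fold change was 0.83 ± 0.18 (SE; adjusted p = 0.0176, edgeR), and the adjusted p was 0.0532 to 0.0737 in the 5 fits that left out a library other than model a. The authors' deposited table gave a statistic of 6.41 with 2.30 degrees of freedom (unadjusted p = 0.0163).

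Ppp2r2cos lies opposite Ppp2r2c, a brain-enriched regulatory subunit of the PP2A phosphatase. Its normalized counts were 1480, 1974 and 1993 in the model libraries and 1091, 1254 and 1004 with AVE0991. Every AVE0991 library was lower, and model library a lay between the others and the AVE0991 group. Its log2 fold change was -0.65 ± 0.17 (SE; adjusted p = 0.0340, edgeR), with 0.0681 to 0.127 in the 5 fits that left out a library other than model a. Of the rest of this group, Arhgap20os had 539, 396 and 438 against 668, 640 and 640 (adjusted p = 0.0661, edgeR), and Lrp8os2, opposite a reelin receptor, had 763, 681 and 589 against 842, 956 and 793 (adjusted p = 0.138, edgeR). Both were separate between groups without passing in the edgeR test with TMM scaling. Arhgap20os passed in 3 of 12 alternative fits. These were the DESeq2 test (0.0227), a mean count of at least 50 (0.0489, edgeR) and the fit without model library a (0.0264, edgeR). Tnk2os, opposite a non-receptor tyrosine kinase, had a log2 fold change of -0.48 ± 0.21 (adjusted p = 0.160, edgeR). Prkag2os1, opposite a regulatory subunit of AMP-activated protein kinase, had -0.24 ± 0.15 and overlapping groups. Arhgap15os had the highest log2 fold change of the group, 2.64 ± 1.22. Its counts were 15, 0 and 0 in the model group and 18, 25 and 39 with AVE0991. The adjusted p was 0.183, and 0.0109 without model library a (edgeR), and Arhgap15os also passed in limma-voom.

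At genes of metabolism, transport and mitochondria, 1 of 13 tested RNAs fell and none rose, against 8.3% and 7.66% of all tested names. Of the 13 log2 fold changes 11 were below 0 (median -0.26), against 957 of 1867. The 1 call, Far1os, rests on low counts: none of 15 passed with no filter, and none of 10 with a mean count of at least 50, where Far1os was not tested. Far1os and Acss2os, 2 of 13, passed with the authors' library factors and in the DESeq2 test (15.5% and 22.1% of all names passed). Far1os lies opposite Far1, a peroxisomal reductase that supplies fatty alcohols for ether lipids. It had 16, 14 and 37 counts in the model libraries and 0, 2 and 0 with AVE0991. Both AVE0991 counts lay in library b. The ratio of model to AVE0991 was 28.7 after library scaling (95% exact interval 7.64 to 242, which covers counting error only), and the adjusted p was 0.0295 (edgeR). It was 0.0526 to 0.141 in the 5 fits that left out a library other than model a, and 0.0548 with no filter on low counts (edgeR). Acss2os, opposite the enzyme that turns acetate into acetyl-CoA outside mitochondria, had 253, 424 and 397 in the model libraries against 227, 191 and 166, without overlap (log2 fold change -0.82 ± 0.25, SE; adjusted p = 0.0565, edgeR). It passed in 3 of 12 alternative fits: with the authors' library factors (0.0434, edgeR), in the DESeq2 test (0.0256) and without model library a (0.0136, edgeR). Abhd11os, opposite a mitochondrial hydrolase, had 240, 240 and 228 against 265, 311 and 349 (adjusted p = 0.132, edgeR). Dio3os, named for the deiodinase that inactivates thyroid hormone, had 893, 1152 and 898 against 750, 1072 and 905 and overlapping groups (adjusted p = 0.858, edgeR).

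Uckl1os, opposite a uridine-cytidine kinase-like gene and overlapping Uckl1 and Zfp512b in RefSeq, had the widest spread between libraries of the tested RNAs with counts in every library. Its normalized counts were 446, 19052 and 17181 in the model libraries and 560, 602 and 21631 with AVE0991. The values fell into a low and a high level that cut across the groups: model library a and AVE0991 libraries a and b were low, and the highest library was 48.5 times the lowest. The group comparison therefore had an SE wider than its estimate (log2 fold change -0.66 ± 1.46, SE; adjusted p = 0.804, edgeR). Without AVE0991 library c the log2 fold change was -4.33 (adjusted p = 0.0955, edgeR). The RNA also weighed on the summed normalized counts of the opposite-strand RNAs, which ran from 102157 to 129360 per library, and from 101597 to 110308 without it.

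**Figure D3:**
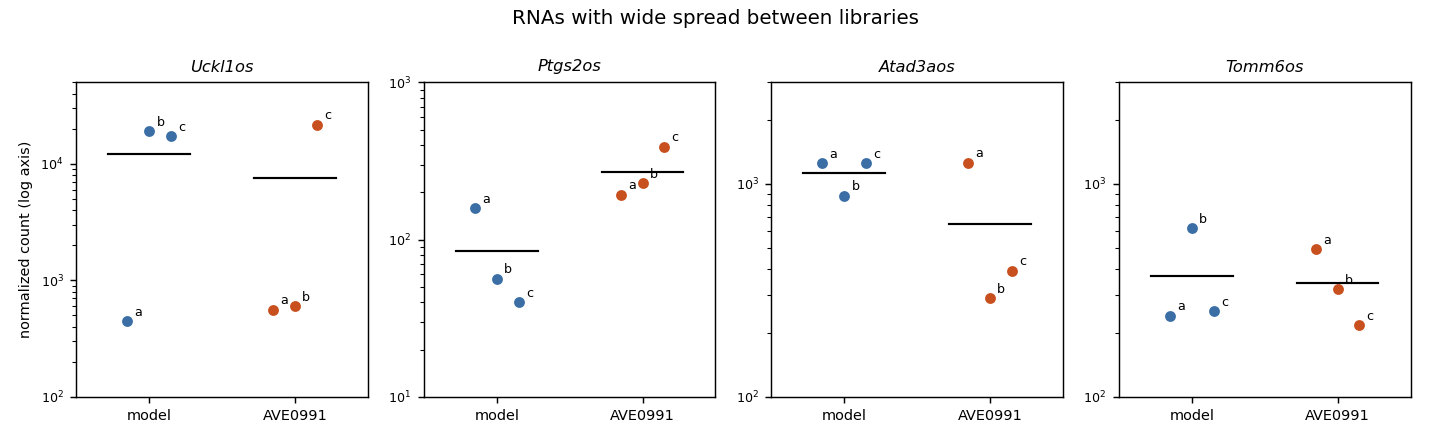
Normalized counts of 4 opposite-strand RNAs with wide spread between libraries, on log axes; each point is 1 library (a, b or c) and the bar is the arithmetic group mean (n = 3). Uckl1os shows a low level of 446 to 602 in 3 libraries and a high level of 17181 to 21631 in the other 3, while Ptgs2os, Atad3aos and Tomm6os each have 1 or 2 libraries apart from the rest of their group.

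Some others also had a library apart. Atad3aos, near the mitochondrial ATPase gene Atad3a, had 1255, 881 and 1254 in the model libraries and 1256, 290 and 391 with AVE0991. AVE0991 library a was at the model level and the other AVE0991 libraries were far lower. Its log2 fold change was -0.74 ± 0.50 (SE; adjusted p = 0.366, edgeR) and, without AVE0991 library a, -1.71 (adjusted p = 0.0136, edgeR). Tomm6os, opposite a subunit of the mitochondrial outer membrane translocase, had 240, 619 and 252 against 493, 319 and 218, so the spread within groups exceeded the difference between them. Across the 107 RNAs the median coefficient of variation was 16.0% within the AVE0991 group and 19.0% within the model group, against 19.1% and 20.5% for all tested names.

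Among sense genes of transcription factors and chromatin, 1 of 17 tested RNAs rose, none fell, and the median log2 fold change was -0.04. Bach2os lies opposite Bach2, a transcriptional repressor best known in lymphocytes. It had 1026, 719 and 911 normalized counts in the model libraries and 1294, 1296 and 1303 with AVE0991. The AVE0991 libraries were almost equal, at 1298 ± 4.74 (SD, n = 3), and the model libraries were all lower. Its change was 0.60 ± 0.17 on the log2 scale (SE; adjusted p = 0.0449, edgeR). The call was lost in the 5 fits that left out a library other than model a (adjusted p from 0.101 to 0.155) and with the authors' library factors (0.0558, edgeR).

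Of the 11 RNAs opposite patterning transcription factors, 7 were tested and none passed. Pax6os1 had 3629, 4197 and 5285 in the model libraries against 3244, 3337 and 3513, without overlap (log2 fold change -0.33 ± 0.16, SE; adjusted p = 0.214, edgeR). Paupar, which overlaps Pax6os1 in RefSeq, fell with a log2 fold change of -2.41 ± 0.20 (adjusted p = 0.000593, edgeR). The difference between these RNAs of 1 locus was not tested. Nkx2-2os, opposite a regulator of ventral neural tube and oligodendrocyte fate, had 286, 342 and 241 against 220, 155 and 204, without overlap (adjusted p = 0.145, edgeR). Six3os1 and Ptf1aos had log2 fold changes of 0.86 ± 0.65 and -0.13 ± 0.49. Ino80dos, beside a subunit gene of a chromatin remodeller and overlapping Ndufs1, had 4925, 6324 and 6457 against 4386, 4759 and 4651 (adjusted p = 0.185, edgeR).

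Among sense genes of DNA repair, cell cycle, RNA and protein processing, 1 of 15 tested RNAs fell and none rose, with a median log2 fold change of -0.16. Brip1os lies near Brip1, a helicase that partners Brca1 in DNA repair, and in RefSeq overlaps Ints2 and Med13 rather than Brip1. It had 2785, 3155 and 3056 in the model libraries and 2011, 1903 and 2359 with AVE0991. The groups were separate and the spread within each was small. The log2 fold change was -0.47 ± 0.13 (SE; adjusted p = 0.0465, edgeR). The adjusted p was 0.0670 to 0.169 in the 5 fits that left out a library other than model a, 0.0538 with DESeq2 size factors and 0.0636 with no filter (edgeR). Its unadjusted p in the authors' deposited table was 0.00769, with a statistic of -5.14 and 3.82 degrees of freedom. Rbm3os, opposite a cold-induced RNA-binding protein, had 209, 356 and 314 against 179, 200 and 110, separate but not past the threshold (adjusted p = 0.106, edgeR). Oip5os1, a conserved lncRNA also called Cyrano, had 9603, 16002 and 8132 against 7322, 7473 and 10911, with overlapping groups. Fbxl12os, named for an F-box gene, had a log2 fold change of 0.15 ± 0.13. Uchl1os, opposite the neuronal deubiquitinase gene Uchl1, had low counts (31.3 to 41.6 in the model libraries and 33.3 to 58.6 with AVE0991) and a log2 fold change of 0.40 ± 0.39 (adjusted p = 0.543, edgeR).

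At genes of cytoskeleton, adhesion and membrane traffic, none of 18 tested RNAs passed (edgeR; the unadjusted p was under 0.05 for Dnm3os, Rab11fip4os2, Plxna4os1, Kank4os and Parvaos). Their median log2 fold change was -0.08. Dnm3os runs opposite the dynamin gene Dnm3 and is the precursor that carries Mir199a-2 and Mir214. It had 2249, 2750 and 2879 in the model libraries and 1737, 1913 and 2002 with AVE0991. All AVE0991 libraries were lower (log2 fold change -0.43 ± 0.14, SE; adjusted p = 0.0759, edgeR). Mir214, the locus inside it that the table lists, had 109, 142 and 126 against 66.2, 74.5 and 73.6, also without overlap (log2 fold change -0.77 ± 0.24, SE; adjusted p = 0.0609, edgeR). The same reads may count towards both names, and counts at such a locus do not measure the mature miRNA. Plxna4os1, opposite a semaphorin co-receptor, and Parvaos, opposite an integrin-linked actin-binding protein, had log2 fold changes of 0.45 ± 0.18 and 0.56 ± 0.25. Kank4os, opposite a regulator of actin, had -0.72 ± 0.29. Rab10os, opposite a GTPase of membrane traffic, had 2078, 2370 and 2272 against 2210, 2060 and 1668 and overlapping groups.

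Among sense genes of immunity and inflammation, 1 of 3 tested RNAs rose. Cd55os lies opposite Cd55, a cell-surface inhibitor of complement, and in RefSeq overlaps Cd55 and its neighbouring copy Cd55b. It had 415, 357 and 331 in the model libraries and 544, 552 and 510 with AVE0991. The groups were separate, with model library a the nearest to the AVE0991 group. On the log2 scale the change was 0.60 ± 0.17 (SE; adjusted p = 0.0452, edgeR). The call was lost in the 5 fits that left out a library other than model a (adjusted p from 0.0914 to 0.153), with the authors' library factors (0.0601) and with no filter (0.0529, edgeR). In the authors' deposited table its unadjusted p was 0.00926.

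Ptgs2os starts beside Ptgs2, the inducible cyclooxygenase of prostaglandin synthesis. It was just outside the threshold in the edgeR test with TMM scaling and inside it in 6 of 12 alternative fits. Its normalized counts were 159, 56.4 and 39.9 in the model libraries and 193, 229 and 389 with AVE0991. The groups did not overlap, but model library a lay close to AVE0991 library a. The log2 fold change was 1.72 ± 0.50 (SE; adjusted p = 0.0509, edgeR), and without model library a it was 2.53 (adjusted p = 0.00263, edgeR). The adjusted p was 0.0491 with DESeq2 size factors, 0.00313 in the DESeq2 test, 0.0239 in limma-voom, 0.0487 with a mean count of at least 50 and 0.0469 with no filter. It was 0.0584 with the authors' library factors and 0.0897 to 0.168 with any library but model a left out. Ptgs2os2, which lies further from the same gene, had counts of 13, 11 and 11 in the model libraries and 0, 0 and 19 with AVE0991, so that library c alone held its AVE0991 counts (adjusted p = 0.781, edgeR).

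Sense genes of little known function held 12 tested RNAs, of which Tmem132cos fell and 11 did not pass. Cdr1os, of a locus that also gives rise to a circular RNA, had 22855, 17477 and 19628 normalized counts in the model libraries and 20053, 22330 and 22635 with AVE0991. The groups overlapped (log2 fold change 0.17 ± 0.13, SE; adjusted p = 0.429, edgeR), and these counts do not separate linear from circular RNA. Fam219aos had 7613, 8340 and 7265 against 9285, 8682 and 10152, separate but with a small difference (log2 fold change 0.33 ± 0.12; adjusted p = 0.111, edgeR). Lyzl4os, opposite a lysozyme-like gene known from sperm, had 58.2, 26.0 and 36.5 against 98.8, 68.4 and 93.7 (log2 fold change 1.16 ± 0.38, adjusted p = 0.0737, edgeR). It passed in 2 of 12 alternative fits, the DESeq2 test (0.0360) and the fit without model library a (0.0254, edgeR). Phtf1os had a log2 fold change of 0.57 ± 0.23 (adjusted p = 0.135, edgeR).

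RNAs that share a sense gene could be set side by side at 7 genes, with both tested at 6. They share a locus and are not independent. The Grip1 RNAs both rose. At Kcnmb4 the log2 fold changes were 0.61 ± 0.18 for Kcnmb4os1 and -0.14 ± 0.27 for Kcnmb4os2, and at Ptgs2 they were 1.72 ± 0.50 and -0.65 ± 1.29. Pcsk2, the convertase that cuts neuropeptide precursors, had -0.18 ± 0.13 for Pcsk2os1 and 0.27 ± 0.15 for Pcsk2os2. The recycling-endosome gene Rab11fip4 had -0.12 ± 0.17 for Rab11fip4os1 and -0.55 ± 0.19 for Rab11fip4os2, and Bcas3 had -0.17 ± 0.18 and -0.08 ± 0.22. Apart from the Grip1 pair none of these passed, and the difference within a pair was not tested.

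**Figure D4:**
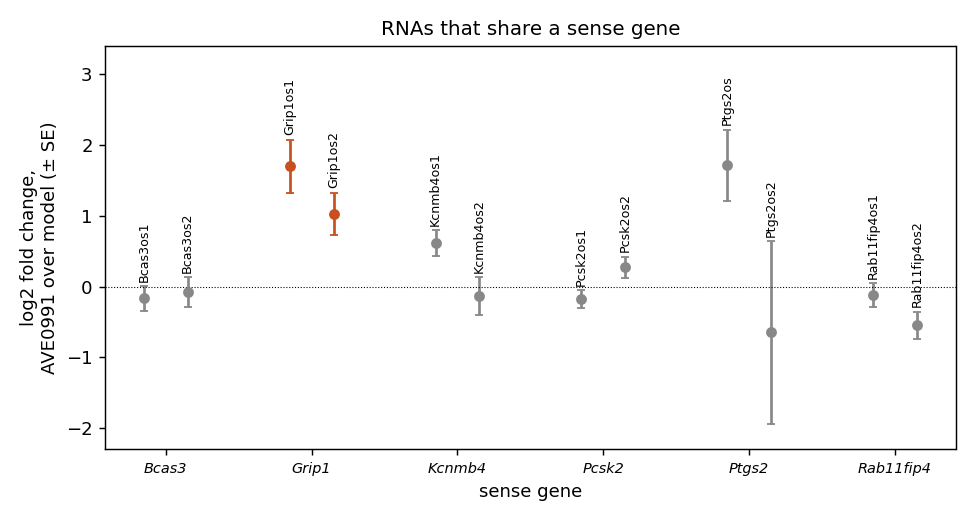
Log2 fold change of AVE0991 over model, with SE, for the 6 sense genes that have 2 tested opposite-strand RNAs each; orange points passed the threshold as higher and grey points did not pass. Both Grip1 RNAs lie above 0, while the pairs at Kcnmb4, Pcsk2 and Ptgs2 have 1 RNA on each side of 0.

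By position, 9 of the 80 tested RNAs that overlap their sense gene passed (11.2%, 6 higher and 3 lower), 1 of the 18 within 1000 bases passed (Brip1os, lower) and none of the 9 further away did (edgeR; 1 of these 9, Dbhos, had an unadjusted p under 0.05). All are under the 16.0% of the whole table, with the opposite-strand names that the rule leaves out not counted among them. The median log2 fold changes were -0.04, -0.11 and -0.03. Of 12 RNAs without a test, Speer4cos had no count in any library and the others had 5 to 55 counts over all 6 libraries, among them Gata5os, Gata6os, Hnf4aos, Vax2os and Tbx3os2.

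Library scaling moved the split of directions. With DESeq2 size factors 11 opposite-strand RNAs passed (15.7% of all tested names did), of which 8 rose (8.03% of all names) and 3 fell (7.71%). With the authors' library factors 8 passed (15.5% of all names), of which 3 rose (6.48%) and 5 fell (9.0%). The DESeq2 test called 17 of 106 (22.1% of all names), limma-voom 13 (17.9%), edgeR without a filter 8 of 118 (12.5%) and edgeR with a mean count of at least 50, where Far1os was not tested, 12 of 94 (20.3%).

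The count of calls moved more with the libraries used than with scaling or filter. Leaving out model library a gave 22 of 107 opposite-strand RNAs past the threshold (20.6%, against 21.8% of all tested names), 13 higher (11.6% of all names) and 9 lower (10.2%). Dropping model library b left 1 (4.88% of all names passed) and dropping model library c left 2 (5.88%). Dropping AVE0991 library a left 2 (7.74%), library b 3 (7.94%) and library c 2 (7.38%). Among the 22 were all 10 RNAs named above as changed, together with Ptgs2os, Arhgap15os, Acss2os, Dnm3os, Lyzl4os, Arhgap20os, Srrm4os, Ino80dos, Ctrcos, Nell1os, Rbm3os and Nrg3os.

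**Figure D5:**
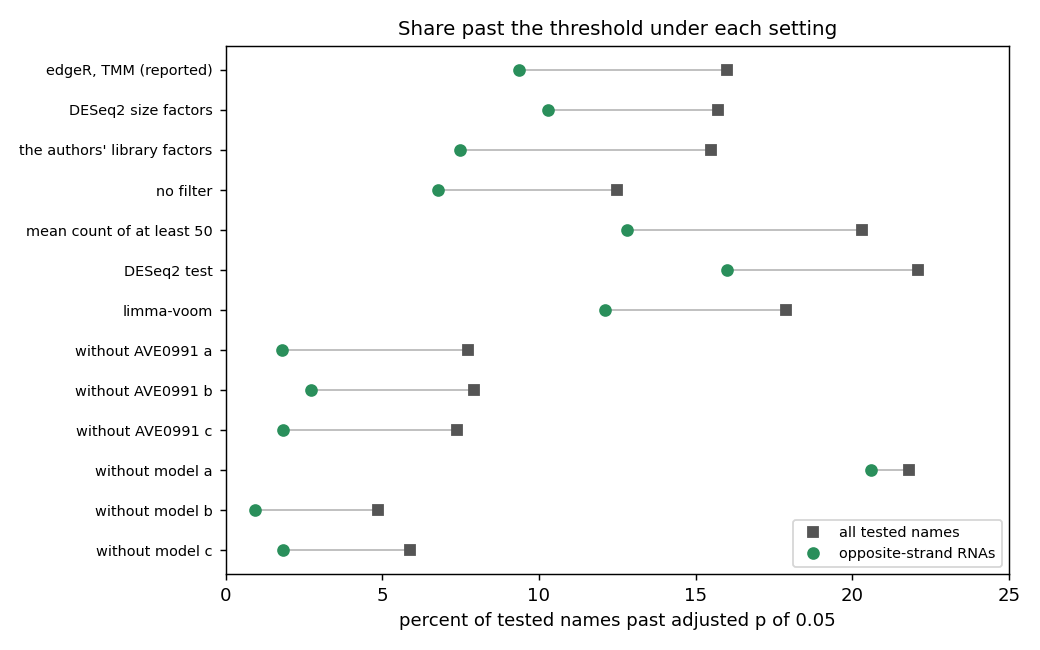
Percent of tested names past an adjusted p of 0.05 under each setting, for opposite-strand RNAs (green circles) and for all tested names (grey squares). The opposite-strand share lies to the left of the share of all names in each of the 13 settings, and its highest value (20.6%) is without model library a. The settings reuse the same libraries. The opposite-strand share lacks the 12 names left out by the rule, of which 66.7% passed in the reported fit.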

How the data were processed

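Per the labels' protocols, reads were checked with FastQC 0.11.8 and trimmed with fastp 0.19.5; the tools DESeq2 1.10.1 and STAR 2.7.7a and the build mm9 come from the submitters' processing notes. The sources used here do not give the counting program, annotation, strand setting or naming step. A count table deposited by the authors is keyed by identifier and was used here for depth only. Per the file headers, the authors' named table holds a mean signal per group, the statistic (a score), degrees of freedom and p-value of a test, a fold change and its log2. That the fold change is a ratio with 1 added to each mean was inferred here from its values.

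Counts behind the named table were recovered as the set of whole numbers that returned both means (relative tolerance 3e-09) and both variances (1e-07). Exactly 1 set was found for 2240 of 2247 names with a value, among them all 118 opposite-strand RNAs with a value. Normalized counts are counts divided by recovered library factors (0.921 to 1.18); libraries a, b and c are ordered by that factor. The step and the tests were also run on simulated data that had the same spread for every name and lacked the names with the highest means. That run did not cover RNAs as variable as Uckl1os or as abundant as Cdr1os.

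The test was edgeR 4.0.16 (R 4.3.3, quasi-likelihood, TMM, filterByExpr). Each SE was derived from the log2 fold change and its F statistic as |log2 fold change|/√F. Library sizes and TMM factors came from the recovered counts of the named table alone. The reported log2 fold changes therefore use another scaling than the normalized counts, from which the overlap of groups was read. Alternatives used DESeq2 1.42.0, limma 3.58.1, other scalings and filters, and each library left out. RNAs named are those past the threshold, those with separate groups and an unadjusted p under 0.05, the 2 with the highest mean count per function group, and partners at the same gene; others were chosen after their values were seen. The RNAs, groups and lists were chosen with earlier results of these data known. All 119 names matched RefSeq (GRCm38.p6); coordinates are not given because the builds differ. Its table used here gives no strand, so position is overlap or distance only.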

Additional observations from a re-analysis of the deposited data

How the results depend on the processing

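In place of the 10 opposite-strand RNAs past the threshold, scaling, filter and test choices gave 8 to 17, and the share that rose varied. Of the 10 themselves, 7 were kept with the authors' library factors and 7 with no filter. DESeq2 size factors and a mean count of at least 50 each kept 9, and the DESeq2 test and limma-voom kept all 10. With 1 library left out 1 to 3 were kept, except that all 10 were kept without model library a. With TMM 6 rose and 4 fell, with DESeq2 size factors 8 and 3, and with the authors' library factors 3 and 5. The DESeq2 test gave 17 (12 higher), a 2-fold minimum gave 5, and the authors' deposited test, adjusted here, gave 0 among opposite-strand RNAs and among all names. With each library left out the count ran from 1 to 22, and for all names from 93 to 417 around 298; a 2-fold minimum left 184 of all names. Fewer libraries enter the fits without one; otherwise the cause was not tested. In the 12 edgeR, DESeq2 and limma-voom fits, Tmem132cos stayed past the threshold, and none of the 10 changed sign where tested. Dio3os changed sign without AVE0991 library a (0.041) or model library b (0.058), with a range of -0.18 to 0.058 over libraries left out, and Kcnmb4os2 without AVE0991 library a (0.034; range -0.32 to 0.034). With 2000 bases in place of 1000, 22 RNAs in place of 19 lay near their sense gene; the planned classes by strand were not made. No paired analysis was possible because the named table carries no replicate numbers. Low counts limit the 12 untested RNAs and Far1os, Dbhos, Arhgap15os and Ptgs2os2.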

Other observations

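The 2-level pattern of Uckl1os was looked for in the other names, a step chosen after its values were seen. Of 1601 names with a mean of at least 30 normalized counts, 6 had their 6 libraries split into 3 and 3 with at least a 5-fold gap between them (1 added to each value). In 5 of these (Gm2694, Lhx1os, Mir6354, Mir6408 and Gm6455) the split followed the treatment groups, with gaps of 5.20-fold to 6.04-fold. In Uckl1os it did not, and its gap was 28.5-fold. Its high libraries were AVE0991 library c and model libraries b and c, a set that none of the other 5 names shared; names with a smaller gap or a lower mean were not searched.

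Gm16063, which overlaps Tbx3os1 in RefSeq, had 50.8, 46.5 and 24.6 normalized counts in the model libraries and 78.2, 76.5 and 83.7 with AVE0991, without overlap (log2 fold change 1.02 ± 0.35, SE; adjusted p = 0.0854, edgeR quasi-likelihood test). Tbx3os1 itself had a log2 fold change of 0.38 ± 0.22.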
